A study of Mus musculus with 40 samples.

Results

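Trem2, Gpnmb, Spp1, Itgax, Lgals3, Cd9, Ctsk, Mmp12, Atp6v0d2 and Apoe are genes reported together in macrophages that have taken up lipid. They were found by gene symbol among the 40628 probes of a 1-colour Agilent array of mouse fat samples, and all 10 were present. They account for 13 of the probes and for 10 of the 29411 gene symbols on the array, since Trem2, Gpnmb and Lgals3 have 2 probes each. A gene is described by its probe with the higher mean level.

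The samples were subcutaneous stromal vascular cells (SVCs, the cells of fat tissue other than adipocytes) of C57BL/6J mice. Weaned animals 3 to 4 weeks old were put on 1 of 5 diets. The low-fat control (LFC) diet drew 10% of its calories from fat, the high-fat, high-sucrose diet (HFC) drew 60%, and the diets HF5, HF20 and HF75 were the high-fat diet with 5, 20 or 75 µg of Kal-1, a botanical formulation. LFC and HFC had 11 arrays each, at 1 Day, 6 Day, 10 Day, 14 Day, Week0, Week3, Week6, Week9, Week12, Week15 and Week18. HF5 had 6 arrays, at Week3 to Week18, and HF20 and HF75 had 5 each, at Week3 to Week15. A further 2 of the 40 arrays carried labels that conflict and were not used.

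Each diet had 1 array per time label, so arrays of different times served as the replicates of a diet. The labels say that 5 animals per group were killed every 3 weeks, and the design text speaks of 3 biological replicates. How many mice went into an array is not stated. Weeks were counted from the 14th day on the diet, so 14 Day and Week0 stand for the same time. The series title calls the samples infiltrating macrophages, while the source labels call them SVCs.

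A level is the log2 intensity of a probe minus the 75th percentile of its array. It compares arrays for the same probe and does not rank genes against each other. A probe was taken as detected on an array where the scanner software called it well above background, and dimmer values were raised to the lowest detected level of that array. Of the 38 arrays, 2 stood apart. The LFC Week3 array had 17.2% of its probes detected and a median rank correlation of 0.447 with the other arrays. The LFC 14 Day array had 9104 spots set aside as outliers and a median rank correlation of 0.471. For the other 36 arrays this correlation was 0.832 to 0.941. Relations among genes are given over those 36 arrays, and differences of members between groups that include either of the 2 arrays are also given without those time labels.

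Macrophage markers were present. Adgre1, Csf1r, Cd68, Cd14, Mrc1, Cd163, Fcgr1, Mertk and C1qb were detected on 36 of 36 arrays, Lyz2 on 35, and C1qa and Itgam on 34. Markers of other cells were present as well. The adipocyte genes Cfd, Pck1 and Lipe were detected on 36 of 36 arrays, as were the fibroblast gene Col1a2, the endothelial genes Pecam1 and Kdr and the T cell gene Cd3d. On the LFC Week18 array the levels of several of these lists were low. There the mean level was -5.59 for 8 fibroblast markers (2 detected), -5.33 for 10 adipocyte markers (4 detected) and -4.24 for 6 endothelial markers (5 detected), while it was 5.69 for 6 neutrophil markers and 5.56 for 5 erythroid markers. A lower level in such a mixture cannot tell fewer cells of a type from less RNA per cell.

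Lipid-associated macrophages gather around dying or enlarged adipocytes in obese fat and take up the lipid they release. The receptor Trem2 senses lipids and signals through the adaptor Tyrobp, and the cells carry a lysosomal and lipid-handling gene programme. Several of the genes are not confined to them: cathepsin K is also made by fibroblasts, osteopontin by epithelial and injured cells, and CD11c by dendritic cells and some lymphocytes.

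Trem2 encodes the lipid-sensing receptor itself. Its level on LFC ran from -0.97 at Week12 over a median of 0.41 to 1.51 at Week6. On HFC it ran from -2.71 at 1 Day over a median of 0.80 to 2.60 at Week6. On HF5 the lowest, median and highest levels were 0.27, 1.23 and 2.68. The HF20 arrays read -0.02 at Week3, 1.64 at Week6, 0.91 at Week9, -0.74 at Week12 and -0.18 at Week15. The HF75 arrays read -0.24, 2.55, 0.74, 1.26 and 0.92 at the same weeks. Week6 held the highest Trem2 level of every diet, 5 of 5.

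Over the 5 diets, mean Trem2 was 2.20 ± 0.57 at Week6 (SD, n = 5), against 0.29 ± 0.52 at Week3, 0.65 ± 0.26 at Week9, 0.59 ± 1.34 at Week12 and 0.86 ± 0.64 at Week15. The Week3 mean includes an undetected value of 0.96 on the dim LFC array. The HFC, HF5, HF20 and HF75 arrays read 0.04, 0.71, -0.02 and -0.24 at that week. The second Trem2 probe, on a different stretch of the transcript, followed the first with a Pearson r of 0.951 over the 36 arrays. The epithelial list was also highest at Week6. The mean level of 5 epithelial markers of mammary gland or skin was 2.46 ± 1.26 at Week6 and between -4.68 and -0.64 at the other 4 weeks, with 1 of the 5 detected on the dim LFC Week3 array. The mean of 12 macrophage markers was highest at Week6 too, at 1.27 ± 0.80. It was 0.36 at Week3, 0.79 at Week9 and 0.58 at Week12. At Week15 it was 1.12 ± 0.46, a spread that holds the Week6 mean. The mean of the immediate-early genes described below was also highest at Week6, at 4.98 ± 0.44, with 4.66 ± 1.24 at Week15. The part of these lists in the Week6 level of Trem2 was not tested, and no test of Week6 against the other weeks was planned.

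Itgax encodes CD11c, an integrin chain of dendritic cells and of macrophages in obese fat. On LFC the lowest, median and highest Itgax levels were -4.47, -1.12 and 0.44, on HFC -5.45, -1.18 and 0.18, and on HF5 -2.31, -1.35 and -0.15. On HF20 it read -0.40, -1.38, -1.61, -3.02 and -2.72 from Week3 to Week15, and on HF75 -0.33, -2.62, -0.93, -0.59 and -2.72. The groups overlapped, and the highest level of all, 0.44, was on the LFC Week18 array, where the fibroblast and endothelial lists were low.

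Cd9 encodes a tetraspanin, a membrane protein that organises other surface proteins. Its lowest, median and highest levels were 1.32, 3.02 and 5.09 on LFC, where the 1 Day value was an outlier spot and was left out. They were 1.07, 4.41 and 5.46 on HFC and 2.04, 4.17 and 5.66 on HF5. The HF20 arrays read 4.77, 3.67, 1.98, 2.06 and 2.20 from Week3 to Week15, and the HF75 arrays 4.68, 4.32, 3.62, 4.61 and 5.40. The last 3 HF20 arrays were high in the adipocyte markers, with mean levels of 5.16, 5.63 and 5.27. No HF75 array was above 3.12, and the part of these markers in the Cd9 levels was not tested.

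Gpnmb encodes a membrane glycoprotein that is induced when lysosomes are loaded with lipid. On LFC it was detected on 8 of 11 arrays, with lowest, median and highest levels of -6.38, -1.71 and 0.53. On HFC these were -4.17, -0.54 and 0.74, and on HF5 -3.27, 0.27 and 0.58. The HF20 arrays read -1.03, -0.55, -1.49, -1.65 and -1.05 from Week3 to Week15, and the HF75 arrays -1.32, -2.69, -1.48, -0.30 and 0.23. At those weeks HFC read -0.54, -0.42, -0.42, 0.74 and 0.43, above every HF20 array, though the nearest values, -0.54 and -0.55, almost touch. The second Gpnmb probe was detected on 0 of 38 arrays and adds nothing.

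Spp1 encodes osteopontin, a secreted ligand of CD44 and of integrins. It was detected on all 38 arrays. On LFC the lowest, median and highest levels were -2.52, 1.20 and 3.09, on HFC -3.40, 2.21 and 3.37, and on HF5 -1.55, 2.32 and 3.63. The HF20 arrays read 2.71, 2.06, -1.46, -0.84 and -0.84 from Week3 to Week15, and the HF75 arrays 3.03, 3.84, 1.84, 3.78 and 3.30. Week9 held the lowest Spp1 level of weeks 3 to 15 in 5 of 5 diets. The titles of the Week9 arrays carry the letters WS, whose meaning is not known. The mean of the adipocyte markers over the diets was 4.62 at Week9 and between 0.26 and 3.01 at the other weeks from 3 to 15. Its part in the Spp1 levels was not tested.

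Lgals3 encodes galectin-3, a secreted lectin that is abundant in macrophages. Its lowest, median and highest levels were 0.04, 3.37 and 4.34 on LFC, where the 14 Day value was an outlier spot and was left out. They were -1.05, 2.92 and 4.14 on HFC, and 2.83, 3.34 and 4.36 on HF5. The HF20 arrays read 2.92, 2.69, 3.31, 3.07 and 3.02 from Week3 to Week15, and the HF75 arrays 2.58, 0.90, 3.14, 3.82 and 3.91. The groups overlapped. The LFC value of 0.04 comes from the dim Week3 array and was not detected. A second Lgals3 probe followed the first with a Pearson r of 0.846 over 36 arrays.

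Apoe encodes apolipoprotein E, which carries cholesterol out of macrophages and is also made by adipocytes. It was detected on all 38 arrays and saturated the scanner on 19 of them, so its values on those 19 arrays are lower bounds. Since the 75th percentile differs between arrays, these bounds fall at low levels too, such as 5.32 on HFC and 5.21 on HF20. As read, with the bounds among them, its values ran from 2.61 to 7.77 on LFC, 5.32 to 8.73 on HFC and 5.22 to 6.82 on HF5. The HF20 arrays read 6.49, 5.21, 5.54, 6.18 and 6.21 from Week3 to Week15, and the HF75 arrays 6.55, 6.88, 6.62, 6.06 and 6.25. On HF20 it was saturated on 5 of 5 arrays, on HFC at those weeks on 4 of 5 and on HF75 on 1 of 5. It was saturated on 5 of 11 arrays of LFC and 5 of 11 of HFC. Its levels are therefore not ranked, and the size of its differences between groups is not given. Where Apoe is counted below among members at unadjusted p, that p rests on these bounds.

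Ctsk encodes cathepsin K, a collagen-cleaving lysosomal protease. On LFC the lowest, median and highest Ctsk levels were -6.79, -0.23 and 1.1, on HFC -1.86, 1.06 and 1.72, and on HF5 -2.60, 0.76 and 1.62. At Week3, Week6, Week9, Week12 and Week15 the HFC arrays read 0.99, 1.06, 1.16, 1.72 and 1.58. The HF20 arrays of those weeks read 0.15, 0.35, 0.16, 0.42 and 0.31, and the HF75 arrays -0.96, -0.53, 0.33, 0.14 and 0.04. Neither HF20 nor HF75 overlapped with HFC over these weeks, as for 0.577% and 3.52% of all probes tested.

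The probe that measured Ctsk lies in the coding part of the transcript, and so does the Lgals3 probe described above. They are printed because the levels given above were read from these 60 bases.
Ctsk probe: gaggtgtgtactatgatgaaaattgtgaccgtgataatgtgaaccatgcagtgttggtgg
Lgals3 probe: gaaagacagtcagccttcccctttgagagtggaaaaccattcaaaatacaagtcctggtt

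Mmp12 encodes macrophage elastase and Atp6v0d2 a subunit of the proton pump that acidifies lysosomes. Both were near background. Mmp12 was detected on 14 of 38 arrays: 3 of 11 on LFC, 5 of 11 on HFC, 3 of 6 on HF5, 3 of 5 on HF20 and 0 of 5 on HF75. Its highest detected level was -2.41, on LFC at 14 Day, and on HFC -3.36, at Week18. At weeks 3 to 15 Mmp12 was detected on 3 of 5 HFC arrays and on 0 of 5 HF75 arrays. Atp6v0d2 was detected on 11 of the 37 arrays with a value, among them 2 of 5 on HF75 and 4 of 11 on HFC. It passed the filter on dim probes in no comparison, and Mmp12 passed it only in those of HFC with HF5, HF20, HF75 and its own early arrays. Against HF75 it passed only through HFC, the group where it was detected, and no difference of Mmp12 is given. Directions and medians over members are given below for the 7 members other than Apoe, Mmp12 and Atp6v0d2.

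**Figure D1:**
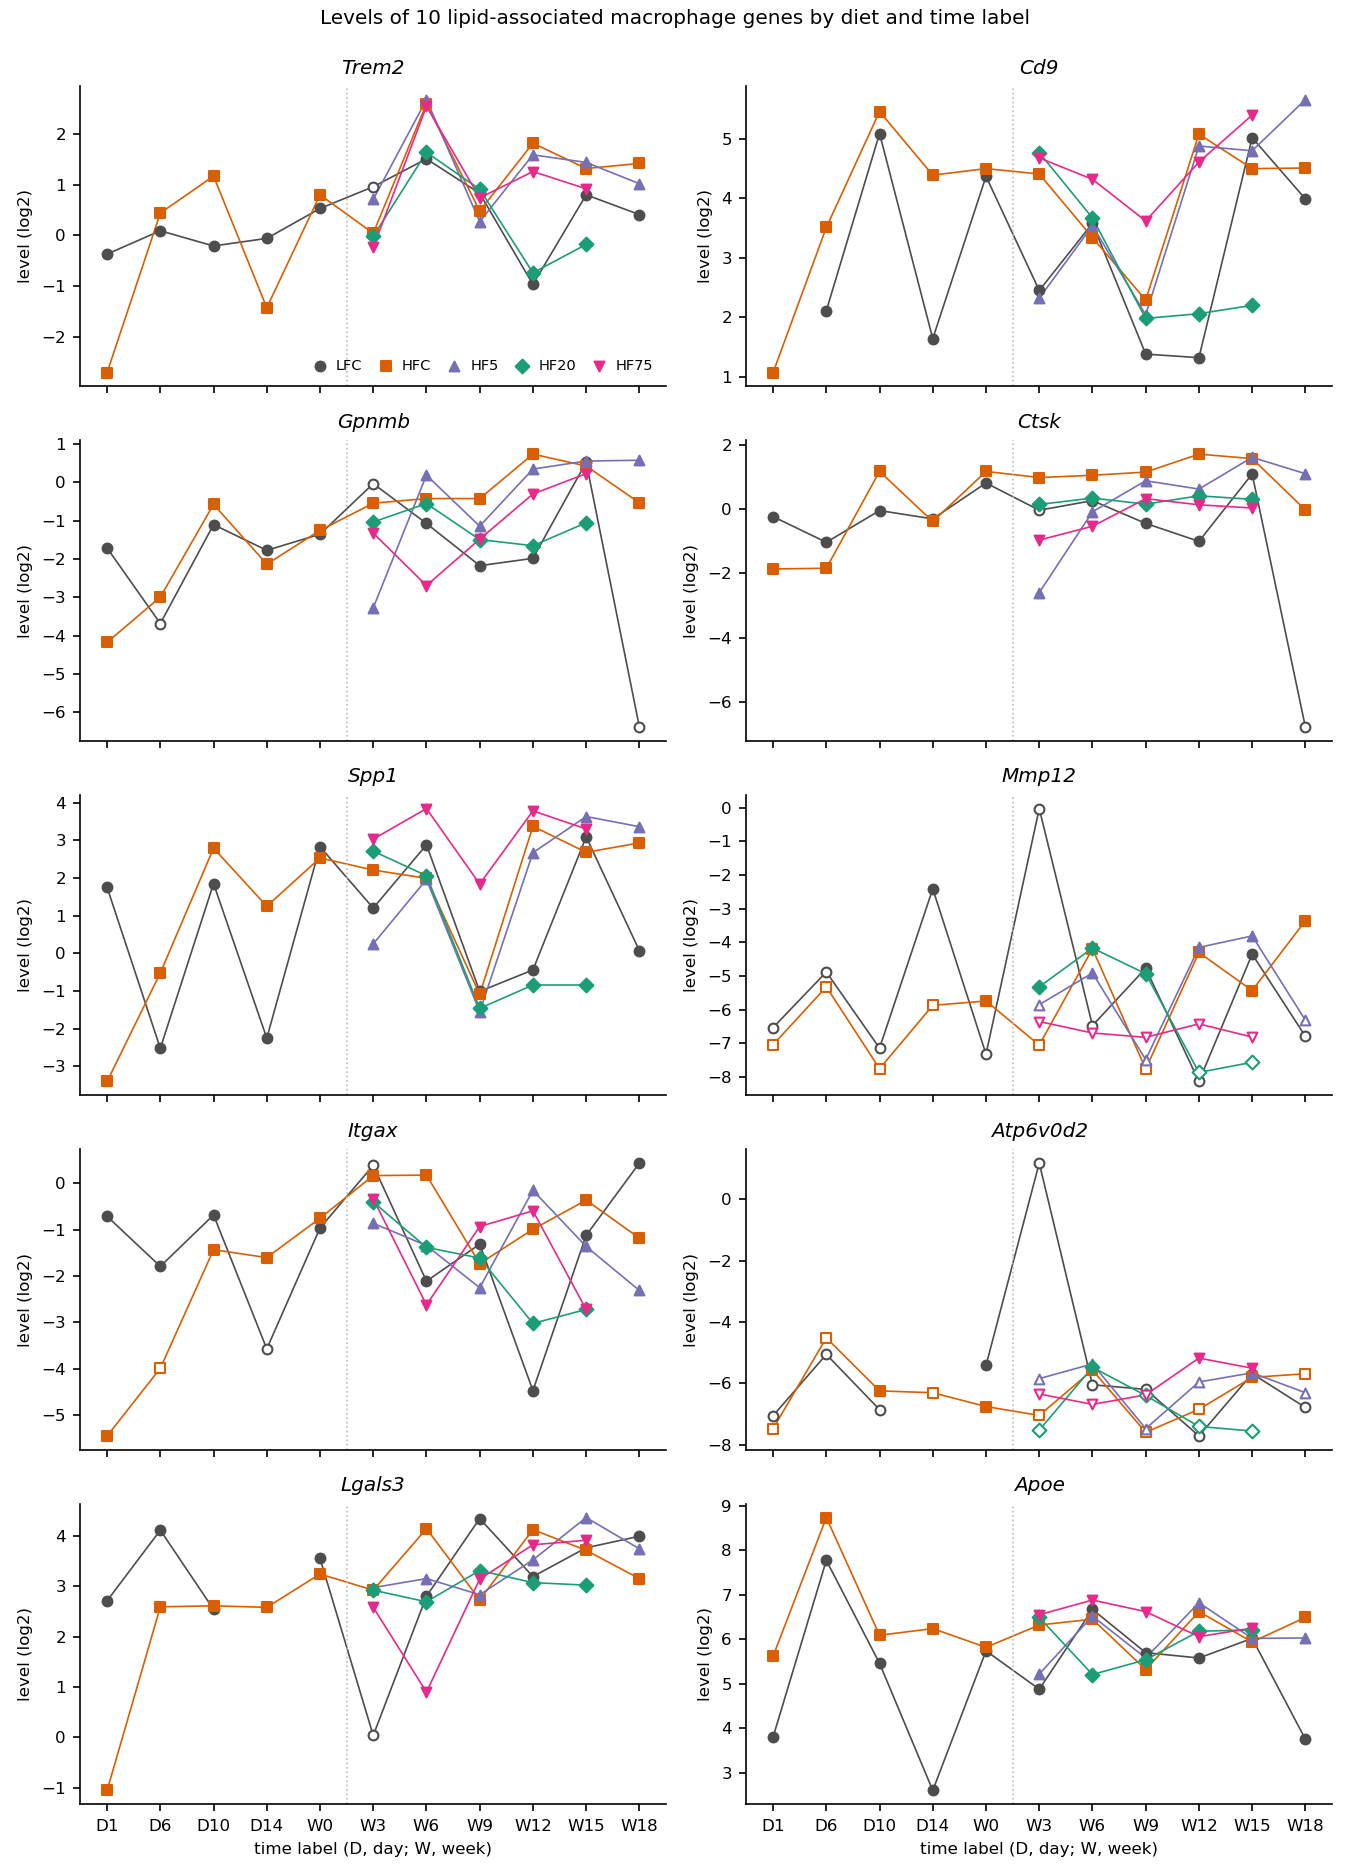
Level of each gene (log2 intensity minus the 75th percentile of the array) by time label, with 1 line per diet, 1 point per array, open points where the probe was not detected, and a dotted line between the early and the late time labels. Trem2 peaks at Week6 in all 5 diets, Spp1 is lowest of weeks 3 to 15 at Week9 in all 5, and Ctsk on HFC lies above HF20 and HF75 from Week3 to Week15. Apoe points include saturated values.

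Over weeks 3 to 15, with 5 arrays per diet, mean Ctsk was 1.30 ± 0.33 (SD) on HFC, 0.28 ± 0.12 on HF20, 0.09 ± 1.62 on HF5, -0.02 ± 0.79 on LFC and -0.20 ± 0.53 on HF75. The step from HFC to HF20 was larger than the SD of either group. Among all the other neighbours in the order of the diets, over the 9 genes other than Apoe, no step was larger than the larger of the 2 SDs. For Trem2 the order was HF5 at 1.34, HFC at 1.25, HF75 at 1.05, LFC at 0.63 and HF20 at 0.32. For Spp1 it was HF75 at 3.16, HFC at 1.83, HF5 at 1.39, LFC at 1.15 and HF20 at 0.33. For Gpnmb it was HFC at -0.04, HF5 at -0.66, LFC at -0.94, HF75 at -1.11 and HF20 at -1.15. HFC was first for Gpnmb, Itgax, Lgals3 and Ctsk, and HF75 was first for Spp1 and Cd9. The LFC means include the dim Week3 array.

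HFC was set against LFC to ask whether the high-fat diet alone goes with other levels of these genes. Cd9 was 1.1 ± 0.43 log2 higher on HFC (SE, 10 pairs; limma p 0.0228, adjusted p 0.941) and higher in 8 of 10 pairs of the same time label. Ctsk was 1.13 ± 0.60 higher, in 8 of 11 pairs, and Gpnmb 0.81 ± 0.58, in 7 of 11. Trem2 differed by 0.22 ± 0.42, Spp1 by 0.66 ± 0.68, Itgax by -0.11 ± 0.62 and Lgals3 by -0.29 ± 0.53.

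The limma fit called 0% of 29215 probes in that comparison and 0 of the 8 members tested. At an unadjusted p under 0.05 there were 2 members, Cd9 and the saturated Apoe, and 2.81% of all probes, and the test named in the study's methods called 0, with 2 at unadjusted p. The median difference was 0.66 over the 7 members (0.41 with normexp background correction) and -0.07 over all probes tested. On the higher side were 5 of the 7, and 6 with normexp background correction. The fibroblast list was higher for 8 of 8 genes (median 1.33), the immediate-early list for 8 of 8 (1.32), the endothelial list for 6 of 6 (0.87) and the adipocyte list for 8 of 10 (0.85; 6 of 10 with normexp background correction, 7 with quantile normalization), with 0 called. The macrophage list was higher for 10 of 12 (0.25). The epithelial list was lower for 5 of 5 (-1.32, 2 at unadjusted p), the neutrophil list for 6 of 6 (-0.64; 4 with normexp background correction) and the B cell list for 6 of 6 (-0.49; 2 with normexp background correction, 5 with quantile normalization), again with 0 called. Their part in the differences of the members was not tested.

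The pairs differed widely. At Week18, where the fibroblast list was low on the LFC array, neither Ctsk nor Gpnmb was detected on it, and the pair difference was at least 6.77 for Ctsk and at least 5.85 for Gpnmb. At Week12 it was 3.80 for Spp1, 3.76 for Cd9, 3.48 for Itgax and 2.79 for Trem2. At 1 Day it was -5.15 for Spp1, -4.74 for Itgax, -3.76 for Lgals3 and -2.34 for Trem2.

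The Week12 LFC array and the 1 Day HFC array were both rich in adipocyte transcripts, with mean levels of the adipocyte list of 5.04 and 4.56. Without Week3 and 14 Day the difference was 0.79 ± 0.44 for Cd9, 1.28 ± 0.71 for Ctsk, 1.08 ± 0.67 for Gpnmb, 0.52 ± 0.43 for Trem2, 0.31 ± 0.76 for Spp1, -0.33 ± 0.72 for Itgax and -0.64 ± 0.47 for Lgals3. Without Week3, 14 Day and Week18, a choice made after the values were seen, the difference was 0.59 ± 0.44 for Ctsk, 0.49 ± 0.48 for Gpnmb, 0.83 ± 0.49 for Cd9, -0.01 ± 0.79 for Spp1, 0.46 ± 0.47 for Trem2, -0.17 ± 0.78 for Itgax and -0.61 ± 0.51 for Lgals3. Within the 4 pairs hybridised on a shared slide it was 1.1 ± 0.49 for Cd9, 0.54 ± 0.56 for Ctsk and -0.16 ± 0.45 for Trem2. These 4 include the pair with the dim LFC Week3 array. In the other 3, at 6 Day, Week0 and Week9, the pair differences were 1.40, 0.12 and 0.90 for Cd9, -0.81, 0.35 and 1.60 for Ctsk and 0.35, 0.27 and -0.34 for Trem2.

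The 4 high-fat diets together were set against LFC at weeks 3 to 18. They share the LFC and HFC arrays with the comparison above, so the values are given side by side only. Ctsk was 1.31 ± 0.62 higher, Gpnmb 1.01 ± 0.62, Cd9 0.99 ± 0.46, Spp1 0.89 ± 0.58 and Trem2 0.38 ± 0.31 (22 against 6 arrays). Lgals3 was 0.20 ± 0.40 and Itgax 0.05 ± 0.51 higher, while the second Lgals3 probe differed by -0.42 ± 0.33. By the first probe 7 of the 7 members were on the higher side, also with normexp background correction and with quantile normalization, with a median of 0.89, against -0.28 over all probes. limma called 0% of 29288 probes and 0 of 8 members, with 3 at unadjusted p (Cd9, Ctsk and the saturated Apoe), against 17.3% of all probes, and 0 at unadjusted p by the test of the study's methods.

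Several marker lists were on the higher side in that comparison as well. Among them were the fibroblast list (8 of 8 genes, median 1.54) and the immediate-early list (8 of 8, 1.29). The T cell list was higher for 6 of 6 (1.34, and 5 of 6 with quantile normalization). The adipocyte list was higher for 8 of 10 (0.98, and 6 with normexp background correction, 7 with quantile normalization). The endothelial list was higher for 6 of 6 (0.87), the B cell list for 5 of 5 (0.98), the macrophage list for 10 of 12 (0.14) and the mast cell list for 4 of 5 (0.39). The neutrophil list was lower for 5 of 6 (-0.15) and the osteoclast list for 5 of 7 (-0.51). In all these lists 0 genes were called. Their part was not tested. Without Week3 Ctsk was 1.67 ± 0.64, Gpnmb 1.49 ± 0.60, Spp1 0.87 ± 0.59, Cd9 0.84 ± 0.45, Trem2 0.63 ± 0.32 and Itgax 0.21 ± 0.61 higher, and Lgals3 was at -0.35 ± 0.36. Without Week18 as well, Ctsk was 0.63 ± 0.29, Gpnmb 0.63 ± 0.41, Spp1 0.45 ± 0.63, Cd9 0.82 ± 0.51, Trem2 0.66 ± 0.36 and Itgax 0.78 ± 0.60 higher, and Lgals3 was at -0.25 ± 0.41.

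Time on the diet was read by setting weeks 3 to 18 against the days and Week0. On LFC Trem2 was 0.60 ± 0.56 higher late, Gpnmb differed by 0.07 ± 1.07 and Ctsk by -0.99 ± 1.17, with the undetected Week18 value in the late group. The second Lgals3 probe was 1.02 ± 0.66 higher late, unlike the first. Spp1 differed by 0.64 ± 1.15, Itgax by 0.18 ± 0.91, Lgals3 by -0.20 ± 0.85 (first probe) and Cd9 by -0.34 ± 0.96. Without Week3 and 14 Day these 4 were at -0.06 ± 1.24, -0.68 ± 0.84, 0.39 ± 0.49 and -0.80 ± 1.02. For Trem2, Gpnmb and Ctsk the differences were then 0.51 ± 0.52, -0.25 ± 1.21 and -1.25 ± 1.39, and without Week18 as well they were 0.53 ± 0.56, 0.79 ± 0.75 and 0.10 ± 0.57. In that last fit Spp1 was at 0.15 ± 1.33, Itgax at -1.22 ± 0.73, Lgals3 at 0.30 ± 0.51 and Cd9 at -1.03 ± 1.07. limma called 0% of 29383 probes and 0 of 8 members, with 0 at unadjusted p and 0 at unadjusted p by the test of the study's methods. The share of all probes at unadjusted p was 2.42%. The median was 0.07 over the 7 members and 0.28 over all probes, and it was -1.83 over the fibroblast list, -2.24 over the T cell list and -2.09 over the adipocyte list. Over the members it was -0.16 with normexp background correction (3 higher and 4 lower) and 0.63 with quantile normalization.

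On HFC 7 of the 7 members were on the higher side in the late arrays, also with normexp background correction and with quantile normalization. Gpnmb read -4.17, -2.99, -0.57, -2.13 and -1.25 at 1 Day, 6 Day, 10 Day, 14 Day and Week0, and its late levels ran from -0.54 to 0.74. The early and late arrays did not overlap, as for 0.872% of the probes tested. Gpnmb was 2.10 ± 0.58 higher late (6 against 5 arrays; limma p 0.00355, adjusted p 0.399). Itgax was 1.99 ± 0.79 higher, Trem2 1.63 ± 0.71, Spp1 1.49 ± 1.11, Lgals3 1.47 ± 0.68 and Ctsk 1.42 ± 0.62. Cd9 differed by 0.24 ± 0.74.

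limma called 0% of 32453 probes in HFC late against early and 0 of 9 members, with 4 at unadjusted p (Trem2, Gpnmb, Itgax and Ctsk), against 11.1% of all probes, and 2 at unadjusted p by the test of the study's methods. The median over the 7 members was 1.49, against -0.25 over all probes. The early group held the 1 Day array, where the mean of the macrophage list was -1.28, its lowest on any array, and the 6 Day array, at -0.08. The adipocyte list was at 4.56 and 5.65 on those arrays, and 10 of its 10 genes were lower late, with a median difference of -1.79 (9 of 10 with normexp background correction). The macrophage list was higher late for 12 of 12 genes (median 0.82) and the immediate-early list for 8 of 8 (0.82), with 0 called. The T cell list was higher for 5 of 6 (1.59) and the fibroblast list for 7 of 8 (0.51). The endothelial list was lower for 6 of 6 (-0.74), again with 0 called. The part of these lists in the differences of the members was not tested.

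Without 1 Day and 6 Day, a choice made after the values were seen, Gpnmb was 1.19 ± 0.43 higher late, Itgax 0.61 ± 0.46, Trem2 1.1 ± 0.68, Lgals3 0.65 ± 0.39 and Ctsk 0.42 ± 0.47. Spp1 was then at -0.17 ± 0.87 and Cd9 at -0.76 ± 0.59, so 2 members that were on the higher side were on the lower side without these arrays.

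The difference between these effects was tested as an interaction of diet and time. Ctsk had an HFC effect 2.42 ± 1.05 larger late than early (limma p 0.0388, adjusted p 0.789), Gpnmb 2.02 ± 1.07, Lgals3 1.82 ± 1.00 and Itgax 1.81 ± 1.19. Trem2 was at 1.03 ± 0.82, Spp1 at 0.85 ± 1.39 and Cd9 at -0.10 ± 0.91, and the second Lgals3 probe at 0.21 ± 0.86. Without Week3 and 14 Day Itgax was at 2.77 ± 1.22, Ctsk at 2.69 ± 1.23, Gpnmb at 2.45 ± 1.17, Spp1 at 1.68 ± 1.51, Lgals3 at 1.33 ± 0.88, Trem2 at 1.1 ± 0.83 and Cd9 at 0.26 ± 0.94. Without Week18 as well Itgax was at 3.40 ± 1.17, Ctsk at 1.61 ± 0.74, Gpnmb at 1.53 ± 0.85, Spp1 at 1.23 ± 1.59, Lgals3 at 1.53 ± 0.94, Trem2 at 1.1 ± 0.91 and Cd9 at 0.35 ± 1.02. limma called 0% of 29215 probes and 0 of 8 members for the late minus early HFC effect, with 1 at unadjusted p, against 4.47% of all probes, and 0 at unadjusted p by the test of the study's methods. With normexp background correction the median over the 7 members was 0.90, and the median over all probes was on the higher side. Without that correction the median was 1.81 over the 7 members and -0.52 over all probes. It was 2.13 over the fibroblast list (8 of 8 on the higher side), 3.86 over the T cell list (6 of 6, 5 at unadjusted p) and 3.53 over the B cell list (6 of 6), with 0 called. Their part in the values of the members was not tested.

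On HF5 6 of the 7 members were on the lower side of HFC, 4 of 7 with normexp background correction and 7 of 7 with quantile normalization. Over 6 pairs Ctsk differed by -0.82 ± 0.54 and Gpnmb by -0.33 ± 0.46. Trem2 differed by 0.00 ± 0.19, Lgals3 by -0.03 ± 0.26, Cd9 by -0.15 ± 0.38 and Spp1 by -0.29 ± 0.36. The second Lgals3 probe was on the higher side, at 0.19 ± 0.28. Itgax differed by -0.73 ± 0.31 and was lower in 5 of 6 pairs. limma called 0% of 29200 probes and 0 of 9 members, with 1 at unadjusted p (Itgax), against 5.15% of all probes, and 0 at unadjusted p by the test of the study's methods. The fibroblast list was lower for 8 of 8 genes (median -0.59; 6 of 8 with normexp background correction), the immediate-early list for 8 of 8 (-0.66) and the macrophage list for 10 of 12 (-0.44, 4 at unadjusted p), with 0 called.

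The Week3 pair of HF5 and HFC stood out, at -3.60 for Ctsk, -2.73 for Gpnmb, -2.09 for Cd9 and -1.96 for Spp1. On the HF5 Week3 array the fibroblast list was at 2.22 and the endothelial list at -2.70, each lowest among the high-fat arrays of weeks 3 to 18. Within the 3 pairs on a shared slide, Week12, Week15 and Week18, Ctsk differed by 0.03 ± 0.48 and Gpnmb by 0.28 ± 0.37.

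HF20 was below HFC for 7 of the 7 members, also with normexp background correction and with quantile normalization. Ctsk differed by -1.03 ± 0.21 and was lower in 5 of 5 pairs (limma p 0.00227, adjusted p 0.405), a 2.04-fold difference. Gpnmb differed by -1.11 ± 0.37, lower in 5 of 5, and Itgax by -1.28 ± 0.41, lower in 4 of 5. Spp1 differed by -1.50 ± 0.79, Cd9 by -0.99 ± 0.58 and Trem2 by -0.93 ± 0.46. Lgals3 differed by -0.52 ± 0.34. The arrays of Ctsk and Gpnmb did not overlap between the groups, which held for 0.577% of the probes tested.

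limma called 0% of 30831 probes in HF20 against HFC and 0 of 9 members, with 3 at unadjusted p (Gpnmb, Itgax and Ctsk), against 11.9% of all probes, and 2 at unadjusted p by the test of the study's methods. The median was -1.03 over the 7 members and 0.08 over all probes. For Spp1 the pair differences were 0.49, 0.07 and -0.36 at Week3, Week6 and Week9, then -4.20 at Week12 and -3.51 at Week15. For Cd9 they were 0.35, 0.33, -0.30, -3.03 and -2.30. These are the weeks at which the adipocyte list read 5.63 and 5.27 on HF20 and 2.03 and 0.38 on HFC. The adipocyte list was higher on HF20 for 10 of 10 genes, with a median of 1.95, and the immediate-early list lower for 8 of 8, with a median of -2.31, and 0 genes of either were called. The T cell list was lower for 5 of 6 (median -1.74), the B cell list for 5 of 5 (-1.34) and the neutrophil list for 6 of 6 (-1.48). The macrophage list was lower for 11 of 12 (-0.51), and 0 genes of these lists were called. The part of all these lists in the differences was not tested. Ctsk differed by -0.85, -0.71, -1.01, -1.31 and -1.27 at the 5 weeks. At those weeks the mean of the fibroblast list differed by -0.47, -0.70, -0.35, -0.44 and -0.63. Of its 8 genes 7 were lower (6 with quantile normalization), with a median of -0.39, 3 at unadjusted p and 0 called, and its part in the Ctsk difference was not tested.

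HF75 differed from HFC in both directions. Of the 7 members 5 were on the lower side, also with normexp background correction and with quantile normalization. Ctsk was 2.83-fold lower, at -1.50 ± 0.25 and in 5 of 5 pairs (limma p 0.000535, adjusted p 0.0514), above the threshold of 0.05. Its pair differences were -1.95, -1.59, -0.84, -1.58 and -1.54 from Week3 to Week15. Gpnmb differed by -1.07 ± 0.33 and was lower in 5 of 5 pairs, from -0.20 at Week15 to -2.27 at Week6. Spp1 differed by 1.33 ± 0.41 and was higher in 5 of 5, from 0.42 at Week12 to 2.93 at Week9.

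Cd9 differed by 0.60 ± 0.32 and was higher in 4 of 5 pairs between HF75 and HFC. Itgax differed by -0.89 ± 0.58, Lgals3 by -0.65 ± 0.54 and Trem2 by -0.20 ± 0.24. No difference of Mmp12 is given, since it was detected on 0 of 5 HF75 arrays and passed the filter only through HFC. limma called 1.02% of 28910 probes and 0 of 9 members, with 3 at unadjusted p (Gpnmb, Spp1 and Ctsk), against 14.6% of all probes, and, by the test of the study's methods, 0 called and 3 at unadjusted p. The arrays of Ctsk did not overlap between HF75 and HFC, which held for 3.52% of the probes tested. The Ctsk call depended on the processing: it passed with quantile normalization (adjusted p 0.0426), with the mean over the probes of each gene (0.0468), with array weights (0.00493) and without Week9 (0.0453), within a range of 0.00493 to 0.939 over its 15 alternatives.

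The fibroblast list was lower on HF75 as well. Its mean level was 3.35, 3.98, 4.00, 3.86 and 3.78 on HF75 and 4.57, 4.85, 4.21, 4.69 and 4.66 on HFC, so the groups did not overlap. Of its 8 genes 6 were lower (8 with quantile normalization), with a median difference of -0.87, and 2 were called: Fbn1, the fibrillin of elastic fibres, at -2.04 ± 0.31 (adjusted p 0.039) and Dpt, a matrix protein of the dermis and fat stroma, at -2.43 ± 0.38 (adjusted p 0.0393). Fbn1 and Dpt were chosen after their values were seen. These calls rest on the pairing of arrays by week: 0 probes were called without the block, and 0 when Week3 was left out. The r between paired arrays was 0.557, 0.505, -0.0107, 0.141 and -0.0312 from Week3 to Week15.

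The macrophage list was on the lower side in HF75 against HFC too, with 11 of 12 genes lower, a median of -1.13, 7 at unadjusted p and 0 called. The part of the fibroblast and macrophage lists in the Ctsk difference was not tested. The epithelial list was higher on HF75 for 5 of 5 genes (median 1.88, 2 at unadjusted p, 0 called). Spp1 had an r of 0.641 with that list over 36 arrays, and its part in the Spp1 difference was not tested.

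The 3 Kal-1 comparisons share their HFC arrays, so a high or low HFC array enters each of them. Ctsk, for example, differed by -0.82 ± 0.54 on HF5, -1.03 ± 0.21 on HF20 and -1.50 ± 0.25 on HF75, and Spp1 by -0.29, -1.50 and 1.33. No difference between doses was tested.

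**Figure D2:**
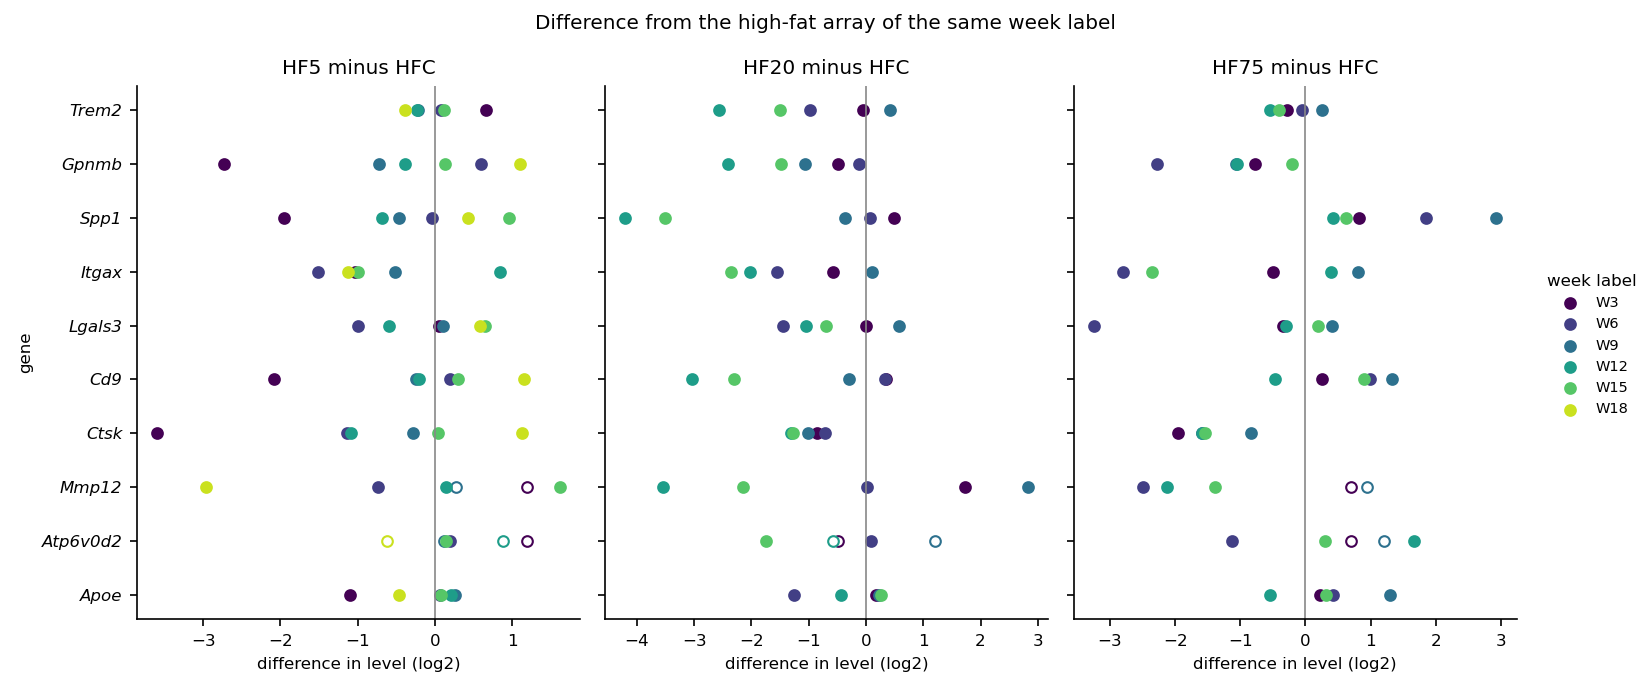
Difference in level (log2) between a Kal-1 array and the HFC array of the same week, 1 point per pair, coloured by week, for HF5, HF20 and HF75, with open points where neither order is given because the brighter value was not detected. Ctsk and Gpnmb lie left of 0 in 5 of 5 pairs on HF20 and on HF75, Spp1 lies right of 0 in 5 of 5 on HF75, and on HF20 Spp1 and Cd9 lie far left at Week12 and Week15. Apoe points include saturated values.

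Relations among the members differed from pair to pair. Over the 36 arrays Gpnmb and Ctsk went together, with a Pearson r of 0.873 and a Spearman rho of 0.759, and an r of 0.8 without the LFC Week18 and HF5 Week3 arrays. With Spp1, Trem2 had an r of 0.57 and a rho of 0.558, and an r of 0.449 without 1 Day HFC and 6 Day LFC. Trem2 had an r of 0.465 and a rho of 0.577 with Gpnmb, 0.437 and 0.168 with Itgax, and 0.3 and 0.409 with Ctsk. Without the 2 farthest arrays these r were 0.42 (LFC Week18 and 1 Day HFC left out), 0.0945 (1 Day HFC and Week12 LFC) and 0.479 (LFC Week18 and HF5 Week3). Ctsk and Itgax had an r of 0.0874 and a rho of 0.161, and an r of 0.563 without LFC Week18 and HF5 Week3. All these points share diets, time labels and the scaling of each array, so the values describe the arrays.

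Ctsk followed the fibroblast list, with an r of 0.891 and a rho of 0.753 over 36 arrays. The r was 0.792 without LFC Week18 and HF5 Week3, 0.842 without the LFC Week18 array, 0.963 within LFC and 0.911 within HFC. Its nearest genes among 16616 compared were C1s, a complement protease (r 0.960), and Egfr, a growth factor receptor (r 0.937). Gpnmb had an r of 0.718 and a rho of 0.596 with the fibroblast list and an r of 0.646 without LFC Week18 and 0.608 without HF5 Week3 as well, and its nearest genes were Igfbp6 (r 0.889) and Creb5 (r 0.888). With the macrophage list Ctsk had an r of 0.369 and Gpnmb of 0.433, which became 0.688 and 0.610 without LFC Week18, and 0.298 and 0.32 without the 1 Day and Week6 HFC arrays. On that array neither Ctsk nor Gpnmb was detected, while the macrophage list was at 1.16.

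Spp1 and Cd9 followed a list of 8 immediate-early genes, such as Fos, Jun, Egr1 and Atf3, which cells switch on soon after a stimulus. Their nearest genes were Ier3 (r 0.914) and Cadm1 (r 0.911) for Spp1, and Tifa (r 0.940) and Gatm (r 0.922) for Cd9. Over the 36 arrays the r and rho with that list were 0.877 and 0.841 for Spp1 and 0.869 and 0.755 for Cd9 (35 arrays). For Gpnmb they were 0.551 and 0.696, and for Trem2 0.526 and 0.646. Ctsk had 0.373 and 0.515, Itgax 0.463 and 0.26, and Lgals3 0.138 and 0.224. Without the HF20 and LFC Week12 arrays the r was 0.595 for Gpnmb and 0.439 for Trem2. The arrays fall into clusters here, so values for Spp1 and Cd9 are also given within them. On 10 of the 36 the adipocyte list was at 4.56 to 6.06, and on the other 26 at -5.33 to 3.12. The 10 are 1 Day of HFC, 6 Day of LFC and HFC, Week9 of LFC, HFC, HF5 and HF20, Week12 of LFC and HF20 and Week15 of HF20.

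Spp1 ran from -3.40 to -0.44 on those 10 arrays and from 0.07 to 3.84 on the other 26, without overlap. This held for 3.29% of 30962 probes, and Spp1 was the only member among them. Cd9 ran from 1.07 to 3.51 on the 10 and from 2.32 to 5.66 on the others. Medians of the immediate-early list were 0.47 and 4.88. Within the 26 arrays the r with that list was 0.799 for Spp1 and 0.496 for Cd9, and within the 10 it was 0.25 and 0.757 (rho 0.653, 0.385, -0.0182 and 0.685 in the same order). Spp1 and Cd9 had an r of 0.618 and a rho of 0.531 with each other over 25 of the other arrays, and 0.422 and 0.261 within the 10. With the adipocyte list itself Spp1 had an r of 0.203 within the 10 and 0.364 within the 26. The 26 include the LFC Week18 array, where that list was lowest, at -5.33. Over the 36 arrays the r was -0.623 and the rho -0.601, and the r was -0.807 without LFC Week18 and 6 Day LFC. The arrays were split after their marker levels were seen, and they are not a group of the study.

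Itgax followed the T cell list, with an r of 0.729 and a rho of 0.753 over 36 arrays, an r of 0.755 without HF5 Week3 and HF75 Week9, 0.733 within LFC and 0.741 within HFC, and its nearest genes were the lymphocyte genes Cd244 (r 0.888) and Nkg7 (r 0.887). Its r and rho were 0.65 and 0.734 with the B cell list, with an r of 0.629 without HFC Week3 and HF5 Week3. With the dendritic cell list they were 0.554 and 0.571, with an r of 0.48 without HF75 Week6 and LFC Week12. With the macrophage list the r was 0.859 within the 10 arrays high in the adipocyte list and 0.151 within the other 26. Over all 36 arrays, of the cell type lists, the macrophage list had the highest r with Trem2 (0.678, rho 0.554) and with Lgals3 (0.61, rho 0.465). Without the 1 Day and Week6 HFC arrays these r were 0.466 and 0.296, so the relations rest in part on those arrays. The fibroblast list had an r of 0.152 with Trem2 and -0.0211 with Lgals3. Without LFC Week18 and HF5 Week3 these became 0.473 and 0.487, so the order of the lists depends on the arrays. By rank the immediate-early list was nearer to Trem2 than the macrophage list, with a rho of 0.646, and the adipocyte list had a rho of -0.564. Without the 2 arrays farthest on each list, the r with Trem2 was 0.439 for the immediate-early, 0.427 for the epithelial and -0.584 for the adipocyte list. For Trem2 and the macrophage list the r was 0.811 within the 10 arrays high in the adipocyte list and 0.552 within the other 26. The nearest genes were Trerf1 (r 0.75) and Tnni3 (r 0.743) for Trem2, and Ccl9, a chemokine of macrophages (r 0.746), and Gm11428 (r 0.736) for Lgals3.

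Mmp12 lay nearest to Fmn1 (r 0.635) and Msr1, a macrophage scavenger receptor (r 0.604). Atp6v0d2 lay nearest to Klk1b5 (r 0.614) and Osgin1 (r 0.612). Most values of both members were not detected, so these r rest largely on background levels. No relation is given for Apoe, since 19 of its values were saturated.

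**Figure D3:**
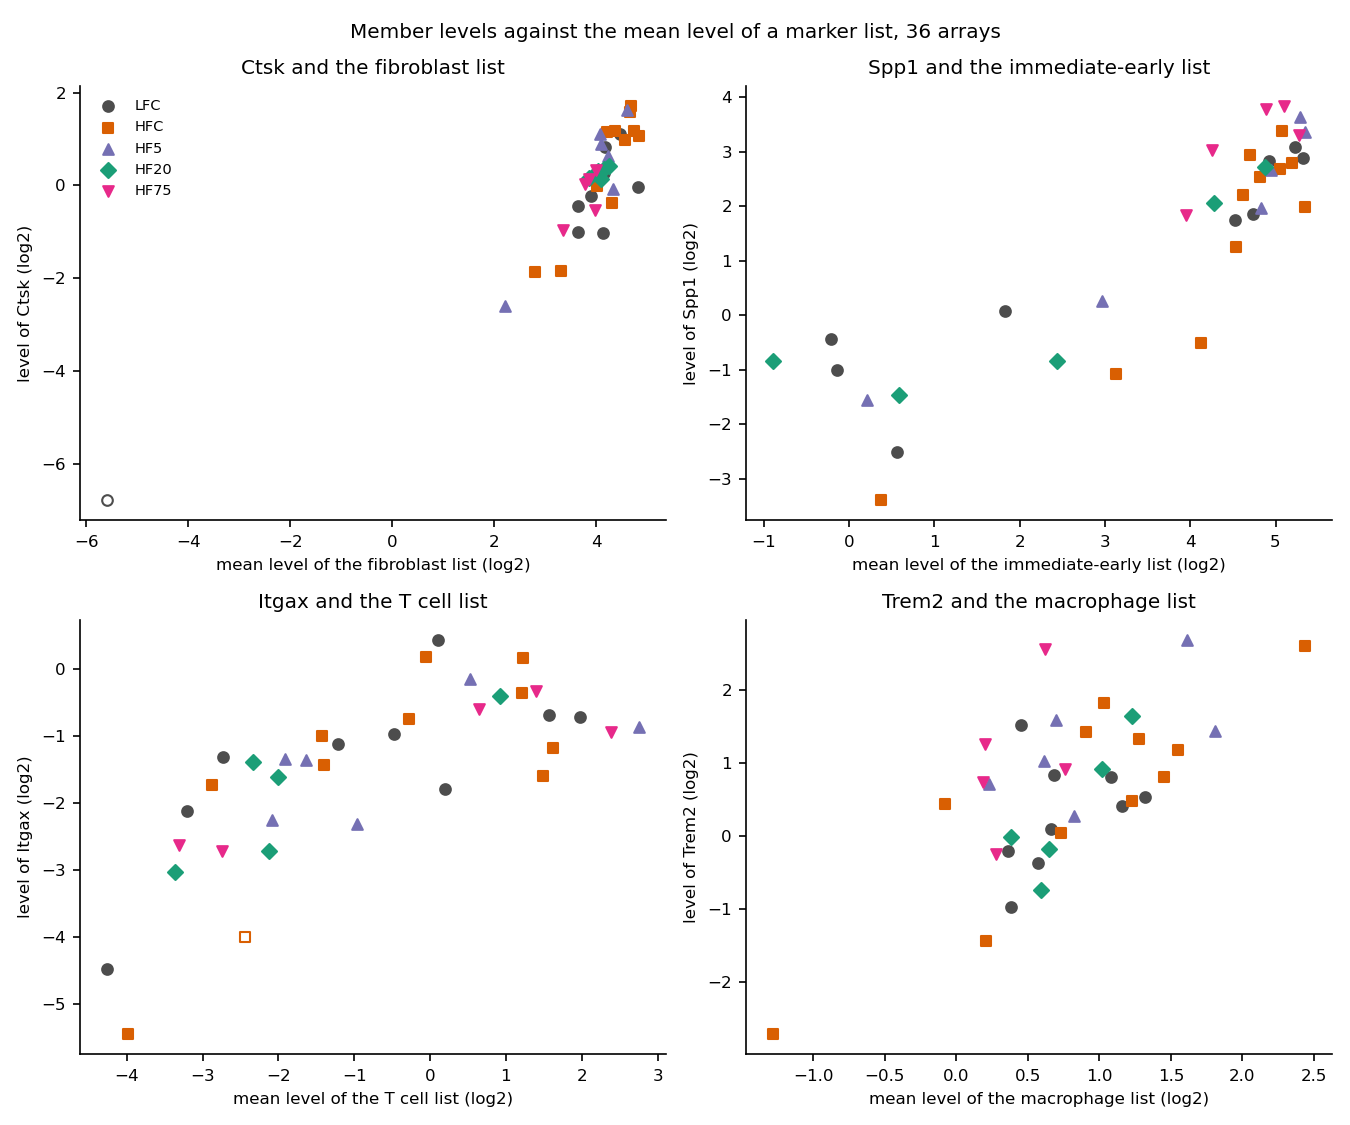
Level of a member (log2) against the mean level of a marker list (log2), 1 point per array, coloured by diet, for the 36 arrays. Ctsk follows the fibroblast list (r 0.891), Spp1 the immediate-early list (r 0.799 within the 26 arrays low in the adipocyte list), Itgax the T cell list (r 0.729) and Trem2 the macrophage list (r 0.678), and the open circle at the lower left of the first panel is the LFC Week18 array.

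Genes of the pathways around the members were read from lists. The Trem2 signalling list holds the adaptors Tyrobp and Hcst, the kinase Syk and 7 further genes. In HF20 against HFC 10 of its 10 genes were lower, with a median of -0.96, 7 at unadjusted p and 0 called. The macrophage list was lower for 11 of 12 genes in that comparison (10 with quantile normalization; median -0.51), and the T cell, B cell and neutrophil lists had medians of -1.74, -1.34 and -1.48. Their part in the Trem2 signalling values was not tested. Tyrobp differed by -0.94 ± 0.38 and Hcst by -1.44 ± 0.57. In HFC against LFC 5 of the 10 were higher, with a median of 0.06, and in HF75 against HFC 4 of 10, with a median of -0.15; with either other scaling 6 of 10 were higher in HFC against LFC. On HFC late against early 9 of 10 were higher, with a median of 0.94.

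The lysosome list holds 20 genes, among them the cathepsins Ctsb and Ctsd. In HF75 against HFC 17 of 20 were lower, with a median of -0.43, 6 at unadjusted p and 0 called; Ctsb differed by -0.59 ± 0.23 and Ctsd by -0.20 ± 0.35. In HF20 against HFC 10 of 20 were lower, with a median of 0.00, against 4 of 20 with normexp background correction and 8 with quantile normalization. The MiT/TFE factors, which switch on lysosomal genes, had medians between -0.35 and 0.13 in the HFC and Kal-1 comparisons, with Mitf at -0.53 ± 0.38 and Tfeb at -0.17 ± 0.46 on HF75.

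The lipid handling list holds 16 genes for uptake, storage and export of lipid, such as the lipase Lpl and the fatty acid receptor Cd36. In HFC against LFC 12 of 16 were higher, with a median of 0.44, and Lpl differed by 1.03 ± 0.53 and Cd36 by 0.91 ± 0.41. In HF75 against HFC 11 of 16 were lower, with a median of -0.34, and Lpl differed by -0.85 ± 0.31. In HF20 against HFC 10 of 16 were higher (9 with normexp background correction), with a median of 0.16, and Lpl differed by 0.65 ± 0.42 and Cd36 by 0.72 ± 0.45. Adipocytes express many of these genes as well, and 0 of 16 were called in any comparison.

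Of 18 receptors and partners of the members, 15 were higher in HFC against LFC (median 0.34), 12 were lower in HF20 against HFC (median -0.23) and 13 lower in HF75 against HFC (median -0.27). Cd44, the receptor of osteopontin, differed by -1.42 ± 0.54 on HF20 and -0.93 ± 0.50 on HF75, and the integrin chain Itgav by -0.04 ± 0.33 and 0.90 ± 0.37. Of 11 further genes reported in lipid-associated macrophages, 7 were higher in HFC against LFC, and 8 were lower on HF20 and 8 on HF75, with medians of -0.44 and -0.28. Among them Capg, which caps actin filaments, differed by -0.95 ± 0.46 and 0.29 ± 0.38, and the phospholipase-like Pld3 by -0.33 ± 0.23 and -0.53 ± 0.30. No gene of these lists was called in any comparison.

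Promoters from RefSeq, build GRCm38.p6, were available for 9 of the 10 members, 13 in all, each with 250 bases before and 50 after a transcription start. They were searched on both strands for CACGTG, the E-box bound by MiT/TFE factors, TGANTCA, bound by the AP-1 factors of the Fos and Jun families, and GAGGAAGT, bound by the macrophage factor PU.1. These letters occur in 7.15%, 7.81% and 3.2% of all 32851 promoters. The first 2 sets of letters read the same on both strands, and the last reads ACTTCCTC on the other. Of the 13 promoters 6 held a match. AP-1 letters were found for Trem2, Gpnmb, Itgax and the second start of Mmp12, PU.1 letters for the first starts of Spp1 and Mmp12, and the E-box for 0 of 13. The open base of the AP-1 letters was A in Trem2, C in Gpnmb and G in Itgax and Mmp12.

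Spp1 and Cd9, which followed the immediate-early list, held no AP-1 letters in these windows. Trem2, Gpnmb and Itgax, which held them, had a rho of 0.646, 0.696 and 0.26 with that list. The part of these letters in the levels was not tested. A match is a description and not a site, and the absence of one says only that the letters are not in the window. The 120 bases before the start are printed for 3 genes with a match there, on the plus strand, with the match in capitals, since they show how near to the start it lies: 9 bases before it in Trem2 and 56 in Itgax for AP-1, and 113 in Spp1 for PU.1.
Trem2, chr17:48346281-48346400: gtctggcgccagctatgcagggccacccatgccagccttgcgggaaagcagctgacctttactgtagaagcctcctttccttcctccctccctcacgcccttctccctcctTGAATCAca
Itgax, chr7:128129430-128129549: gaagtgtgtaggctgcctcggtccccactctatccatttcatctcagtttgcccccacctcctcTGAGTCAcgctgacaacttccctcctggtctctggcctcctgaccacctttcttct
Spp1, chr5:104434991-104435110: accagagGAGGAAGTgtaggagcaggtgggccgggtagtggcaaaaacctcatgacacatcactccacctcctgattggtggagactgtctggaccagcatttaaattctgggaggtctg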

How the data were processed

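Arrays of 1 colour were scanned and extracted by the authors with Feature Extraction, version 10.5.1.1 per the file headers and 9.1 per the labels. The deposited intensity values were background-subtracted and detrended, array by array, with no normalization across arrays. The 40 deposited fold change columns, 1 for each array, are the authors' own comparisons and were not used; that table gave symbols and probe sequences. Control and outlier spots were left out, spots of a probe averaged, each array's 75th percentile subtracted from its log2 intensities, and values not well above background raised to the lowest level well above it. A probe was tested if 50% or more of 1 group's arrays detected it.

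limma 3.58.1 in R 4.3.3 fitted diet with the time label as a block (late against early without one), with Benjamini-Hochberg adjustment over all probes tested and a threshold of 0.05. Tables used Python 3.11.15, NumPy 2.4.6, pandas 2.3.3, SciPy 1.17.1 and Matplotlib 3.10.9. The pairs come from the time labels. As a check, the r of paired arrays over centred levels ran from -0.289 to 0.681 for HFC and LFC (23129 probes), 0.219 to 0.878 for HF5 and HFC, -0.222 to 0.612 for HF20 and HFC and -0.0312 to 0.557 for HF75 and HFC. The number of arrays limits the precision.

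The genes named are the 10 members, the 2 genes with the highest Pearson r over 36 arrays to each member other than Apoe, and, from each pathway list, those called (at most 4) or else the first 2. The members and lists were chosen with earlier results of these data known. The pathway lists are Trem2 signalling, lipid handling, lysosome, MiT/TFE factors, receptors and partners, and further genes reported in lipid-associated macrophages, and marker lists cover cell types of fat and immediate-early genes. Alternatives were normexp background correction, quantile normalization, no filter or a stricter filter on dim probes, values left as measured and the mean over a gene's probes. Further ones were no block, 14 Day and Week0 merged, 1 fit over all arrays, array weights (whose fit stopped before it converged for all high-fat diets) and a t-test. The rest left out each time label, Week3 and 14 Day or Week9, or kept only pairs on a shared slide. The t-test is the kind named in the study's methods, but its replicates here were time labels. It was run on pair differences, between late and early arrays, or between late and early pair differences. Alternatives without Week18 or without 1 Day and 6 Day were chosen after seeing the data.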

Additional observations from a re-analysis of the deposited data

How the results depend on the processing

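The number of members called was 0 in every comparison, and it became 1 under some alternatives for HF75 against HFC, where the member was Ctsk. It was 1 with quantile normalization, 1 with the mean over the probes of a gene, 1 with array weights and 1 without Week9. Leaving out each week in turn, Week9 among them, gave 0 to 1. The cause was not tested. The Ctsk difference ran from -1.73 to -1.12 and kept its direction in 15 of 15 alternatives. Without the block, arrays not paired, 0 members and 0 probes were called, against 294 probes with it, and the Ctsk difference was -1.50. For the other 7 comparisons the count of members called was 0 under each alternative run. The number of probes called was 0 in LFC late against early and in all high-fat diets against LFC, and with array weights it was 2450 and 270. For all high-fat diets the fit of the weights stopped before it converged. The count was 25 in LFC late against early without Week3, 14 Day and Week18, and 16 in all high-fat diets without Week15. In HF75 against HFC it was 1453 with array weights. In HFC against LFC, Cd9 and Ctsk kept their direction in 24 of 24 alternatives, while Itgax did in 19 of 24.

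Normexp background correction shifted the median difference of all probes to -0.30 in HF5 against HFC (from 0.00), -0.39 in HF20 (from 0.08), -0.23 in HF75 (from -0.01), 0.11 for all high-fat diets (from -0.28), -0.50 and 0.28 for late against early on LFC and HFC (from 0.28 and -0.25) and 0.69 for the interaction (from -0.52). Quantile normalization shifted it to 0.49 and 0.02 for LFC and HFC late against early and to -0.41 for the interaction. A fit over all arrays could not be run for those 2 comparisons, nor pairs on a shared slide for HF20 and HF75. The median signal over background was 4.86 per array, from 1.53 to 55.4, which limits Mmp12 and Atp6v0d2.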

Other observations

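The other cell type lists were read in the Kal-1 comparisons with HFC, and 0 genes of the lists below were called. In HF20 against HFC the median difference was -0.83 over 5 mast cell markers, -0.12 over 6 dendritic cell markers, -0.04 over 7 osteoclast markers, -0.54 over 6 endothelial markers, -0.60 over 4 erythroid markers, -0.11 over 6 skeletal muscle markers and 0.69 over 5 epithelial markers.

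In HF75 against HFC it was 0.15 for T cell, 0.34 for B cell and 1.04 for neutrophil markers, and -1.27 for mast cell, -0.19 for dendritic cell, -0.40 for osteoclast, -0.21 for endothelial and -1.37 for erythroid markers. It was 0.71 for skeletal muscle, 1.88 for epithelial, 0.35 for adipocyte and -0.07 for immediate-early genes. The median over all probes was 0.08 and -0.01 in the 2 comparisons.

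In HF5 against HFC the median was -0.60 for T cell, -0.43 for B cell, 0.22 for neutrophil, -0.41 for mast cell, -0.29 for dendritic cell, -0.07 for osteoclast and -0.33 for endothelial markers. It was -0.94 for erythroid, 0.16 for skeletal muscle, 1.74 for epithelial and -0.49 for adipocyte markers, against 0.00 over all probes. Within HF5, HF20 and HF75 each member was searched by Dixon's ratio for an array far from the others, and 0 of 30 groups held 1.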
